A study of Mus musculus with 3 samples.

Results

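Chemokines and their receptors were described in nuclei of the mouse abdominal aorta. The members were the features whose symbol is Ccl, Cxcl, Ccr, Cxcr or Xcr with a number and at most 1 closing letter, or Cx3cl1, Cx3cr1, Xcl1 or Ccrl2. This rule gave 58 of the 33696 features in the deposited tables, 39 ligands and 19 receptors. Of these, 38 members had at least 100 transcript molecules, counted by unique molecular identifiers (UMIs), over the nuclei kept, and all but 1 of them are described by name (25 ligands and 13 receptors with that one). The other 20 had 0 to 98 UMIs. Among them, Ccl20, Ccl21b, Ccl21d and Ccl27b had none in any library.

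Chemokines are small secreted proteins that bind heparan sulphate on cell surfaces and matrix and guide leukocytes through receptors coupled to Gi proteins. The CXC ligands Cxcl1 and Cxcl2 act on the neutrophil receptor Cxcr2, Cxcl9 and Cxcl10 on the T cell receptor Cxcr3, Cxcl12 on Cxcr4 and Cxcl13 on the B cell receptor Cxcr5, while the CC ligands Ccl2, Ccl7 and Ccl12 act on the monocyte receptor Ccr2. In the artery wall, resident stromal cells and macrophages are both known sources, and Ccr2 and Cx3cr1 have long been studied in atherosclerosis.

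The study profiled nuclei from frozen abdominal aortae of ApoE-/- mice on the C57Bl/6 background, a strain that develops atherosclerosis, by droplet single-nucleus RNA sequencing. All mice received a high fat diet, and the groups were room air for 20 weeks, cigarette smoke for 20 weeks without an aneurysm (smoke library) and cigarette smoke for 20 weeks with an abdominal aortic aneurysm (aneurysm library). Each group was 1 library. The number of animals behind each library is not given in the labels, so no test between groups was possible, and no p-value is printed. Intervals in this text are exact 95% intervals (Poisson for a level, conditional binomial for a ratio), and they cover counting error only. The mice with an aneurysm also smoked, so the comparison of aneurysm with room air holds both differences.

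After filtering, 11022 room air, 14001 smoke and 5707 aneurysm nuclei were kept, with medians of 4058.5, 6225 and 1443 UMIs. The members together held 31455, 62774 and 4773 UMIs, or 4.61, 5.42 and 3.75 per 10000. The aneurysm library was thus shallower and had a different makeup. Of its nuclei, 1243 were adipocyte-like against 38 and 208, and 717 were macrophage-like against 4205 and 5194. Unnamed clusters held 911, 937 and 560 nuclei. When each library was clustered alone, aneurysm had macrophage-like clusters of 604, 397 and 382 nuclei, so the count of 717 depends on the clustering. The monocyte-like, dendritic-like, T or NK-like, B-like and migratory dendritic-like classes of the aneurysm library held 29, 12, 12, 6 and 2 nuclei. Those classes were therefore compared between room air and smoke only. Classes were named from marker genes that include no member, and the members were kept out of the clustering. Kept nuclei of different libraries shared 17 to 36 barcodes per pair of libraries.

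The 250 bases before the start of 4 chemokine genes whose levels carry the comparisons between libraries are printed here, from RefSeq on GRCm38.p6, 5′ to 3′ on the gene's strand. All 4 genes lie on chromosome 5. Capitals mark matches to the kappa B motif (GGGA, any 4 bases, CC), bound by NF-kappa B proteins, and, in Cxcl10, also a match to the interferon motif (GAAA, any 2 bases, GAAA), bound by interferon regulatory factors. Both strands were searched.
Cxcl2 promoter, chr5:90903649-90903898, plus strand: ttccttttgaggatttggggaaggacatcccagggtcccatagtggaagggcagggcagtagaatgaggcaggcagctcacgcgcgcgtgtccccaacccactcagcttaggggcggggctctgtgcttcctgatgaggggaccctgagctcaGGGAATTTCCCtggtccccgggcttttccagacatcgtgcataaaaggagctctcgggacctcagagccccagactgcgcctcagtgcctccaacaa
Cxcl9 promoter, chr5:92328080-92328329, minus strand: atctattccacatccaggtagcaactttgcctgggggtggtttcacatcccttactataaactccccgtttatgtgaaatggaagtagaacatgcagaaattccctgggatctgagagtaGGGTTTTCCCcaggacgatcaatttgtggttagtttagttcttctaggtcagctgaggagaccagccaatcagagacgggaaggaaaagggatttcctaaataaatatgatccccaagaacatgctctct
Cxcl10 promoter, chr5:92348890-92349139, minus strand: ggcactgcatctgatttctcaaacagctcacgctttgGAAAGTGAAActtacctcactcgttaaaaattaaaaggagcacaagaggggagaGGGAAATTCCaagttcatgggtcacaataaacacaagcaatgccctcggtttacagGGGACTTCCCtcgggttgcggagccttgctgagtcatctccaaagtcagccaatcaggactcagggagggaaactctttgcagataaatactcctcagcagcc
Cxcl13 promoter, chr5:95956689-95956938, plus strand: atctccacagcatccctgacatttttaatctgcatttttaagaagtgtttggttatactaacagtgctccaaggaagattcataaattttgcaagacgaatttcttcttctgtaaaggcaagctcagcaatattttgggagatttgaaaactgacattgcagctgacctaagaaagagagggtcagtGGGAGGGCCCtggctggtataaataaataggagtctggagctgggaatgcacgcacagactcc
Cxcl2 had overlapping kappa B matches that begin 97 and 96 bases before its start, and Cxcl10 had kappa B matches at 159 and 103 bases and an interferon motif match at 213 bases. Cxcl9 had 1 kappa B match at 130 bases and Cxcl13 had 1 at 63 bases. Of the 58 members, 43 had a promoter in the RefSeq table, and 19 of these had a kappa B match, while 17.6% of all 32851 promoter windows of this length and 19.7% of the 27025 genes had one. The interferon motif was present in 3 members (Ccl19, Cxcl10 and Cxcl14), in 2.98% of all windows and in 3.46% of genes. The GAS motif TTCNNNGAA was present in 3 members, in 7.02% of windows and in 8.13% of genes. A match is a stretch of letters and was not measured as a binding site here.

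Cxcl12, which retains Cxcr4-bearing cells and is made by stromal cells, was a stromal and endothelial ligand in these aortae. In fibroblast-like nuclei its level was 121 CPM (113 to 129; UMIs of the gene scaled to the total of its class) in room air, 163 (157 to 170) in smoke and 106 (95.2 to 117) in aneurysm. Endothelial-like nuclei had 69.7, 106 and 66.2 CPM, and smooth muscle-like nuclei 52.8, 70.8 and 17.7 CPM. The smoke library was highest in all 3 classes, and the smooth muscle-like level of the aneurysm library was the lowest, at 23 UMIs. In macrophage-like nuclei Cxcl12 was at 3.45, 4.72 and 4.64 CPM. Its receptor Cxcr4 was instead high in leukocyte classes, with 50.6 and 75.8 CPM in monocyte-like nuclei of the room air and smoke libraries, 36.5, 40.7 and 30.5 CPM in macrophage-like nuclei of the 3 libraries, and 6.42, 7.95 and 1.63 CPM in endothelial-like nuclei.

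Cxcl1 and Cx3cl1 were also highest in stromal or endothelial classes. Cxcl1, a neutrophil attractant, had 34.8, 23.5 and 51.6 CPM in fibroblast-like nuclei, 20.8, 16.7 and 23.9 CPM in smooth muscle-like nuclei and 16.7, 25 and 16.0 CPM in endothelial-like nuclei (room air, smoke and aneurysm in this order here and below). Cx3cl1, the membrane-bound ligand fractalkine, had 37.8, 31.7 and 18.6 CPM in fibroblast-like nuclei and 29.0, 34.5 and 22.3 CPM in smooth muscle-like nuclei, whose counting intervals overlap within the smoke and the aneurysm library. The fibroblast-like level of Cx3cl1 came mostly from cluster 5, led by Grin2a, with 48.9, 41.9 and 27.6 CPM against 7.12, 7.48 and 6.24 CPM in cluster 7, led by C7. Cx3cr1, its receptor, was at 41.7 and 78.6 CPM in monocyte-like nuclei of room air and smoke and at 15.4, 21.2 and 19.2 CPM in macrophage-like nuclei.

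Of the ligands found mainly in fibroblast-like nuclei, Ccl11 (eotaxin, an eosinophil attractant) was the most restricted. That class held 88.6%, 90.8% and 87.9% of its UMIs, with 4.20, 6.56 and 8.45 CPM. Ccl19, a ligand of the lymphoid homing receptor Ccr7, had 3.25, 7.67 and 4.95 CPM there, and Cxcl14 had 1.90, 3.61 and 4.66 CPM. Ccl19 overlaps 4930578G10Rik on the opposite strand, which had 472, 464 and 703 CPM in the same nuclei, and how strand was handled in the counting was not stated in the sources used here. Ccl21a, the other Ccr7 ligand and a near-identical copy of Ccl21b and Ccl21d, had 9, 40 and 6 UMIs in lymphatic endothelial-like nuclei, of which the room air library held 29, and these gave 130, 152 and 46.5 CPM. Ccl27a had 2.2, 2.33 and 6.93 CPM in smooth muscle-like nuclei (9 UMIs in the aneurysm library).

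Among the named classes, monocyte-like nuclei led for Cxcl2, Ccl2 and Ccl7 in room air and smoke. Within the macrophage-like class, the cluster led by F13a1 was higher still for Ccl2 and Ccl7 in both libraries, and for Cxcl2 in room air (values below). Cxcl2, a neutrophil attractant induced by inflammatory stimuli, had 242 (220 to 266) and 364 (343 to 386) CPM in monocyte-like nuclei of room air and smoke, and 34.3, 77.8 and 32.5 CPM in macrophage-like nuclei. Ccl2 and Ccl7, monocyte attractants, had 37.8 and 64.0 CPM, and 17.8 and 34.9 CPM, in monocyte-like nuclei. A single room air nucleus held 18 of the 68 Ccl2 UMIs, and 1 smoke nucleus held 32 of the 110 Ccl7 UMIs. Ccl3 and Ccl4, attractants of macrophages and T cells, had 12.8 and 25.4 CPM, and 38.4 and 57.4 CPM, in monocyte-like nuclei. In T or NK-like nuclei Ccl3 was at 25 and 15.0 CPM and Ccl4 at 69.4 and 45.4 CPM, where 1 room air nucleus held 12 of 36 Ccl4 UMIs.

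Cxcl16, a membrane-bound ligand and scavenger receptor, was high across myeloid classes: 203 and 235 CPM in migratory dendritic-like nuclei, 122 and 145 CPM in dendritic-like nuclei, and 102, 119 and 77.5 CPM in macrophage-like nuclei. Ccl22, a Ccr4 ligand of mature dendritic cells, was at 24.7 and 67.3 CPM in migratory dendritic-like nuclei, with 6 of its 12 room air UMIs there in 1 nucleus. Ccl5, the ligand RANTES of activated T and NK cells, was highest in T or NK-like nuclei, at 32.8 and 90.3 CPM. Ccl25 showed no such preference, with 55.6, 57.5 and 44.4 CPM in macrophage-like, 41.3, 46.3 and 45.0 CPM in endothelial-like and 42.7, 48.4 and 42.5 CPM in fibroblast-like nuclei. It overlaps Elavl1 on the opposite strand, a broadly expressed gene that had 96.2, 94.3 and 108 CPM in macrophage-like nuclei. The remaining named ligands were low: Ccl28 had 1.95, 1.59 and 2.65 CPM in macrophage-like nuclei, and Cxcl17 had 37, 84 and 4 UMIs over all kept nuclei. Ccl12 had 82, 248 and 13 UMIs over all kept nuclei.

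Most named receptors were highest in a leukocyte class. Ccr7, which takes dendritic cells and lymphocytes to lymph nodes, had 436 (379 to 498) and 496 (460 to 535) CPM in migratory dendritic-like nuclei, which held 69.1% and 79.3% of its UMIs in room air and smoke. Cxcr6, the receptor of Cxcl16 on T and NK cells, had 55.9 and 53.2 CPM in T or NK-like nuclei. Cxcr3 had 7.71 and 12.4 CPM there, from 4 and 24 UMIs. The levels of Ccr7 and Cxcr6 in their leading class differed by less than the counting intervals between room air and smoke.

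In B-like nuclei Ccr6 was at 52.9 and 53.7 CPM and Cxcr5, the receptor of Cxcl13 on follicular B cells, at 37.8 and 67.5 CPM. Migratory dendritic-like nuclei also had Cxcr5, at 41.1 and 15.4 CPM. Dendritic-like nuclei held Xcr1, the marker of cross-presenting dendritic cells, at 14.8 and 11.8 CPM, with 9 of the 23 room air UMIs in 1 nucleus, and Ccr9 at 22.5 and 31.3 CPM. Ccr9 lies within a region shared with Lztfl1 on the opposite strand, which had 32.8 and 29.9 CPM in those nuclei.

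Ccr2, the receptor of inflammatory monocytes, had 123 and 103 CPM in dendritic-like nuclei, 106 and 119 CPM in monocyte-like nuclei, and 6.43, 9.83 and 35.1 CPM in macrophage-like nuclei. Ccr1 had 33.9 and 43.1 CPM in monocyte-like nuclei, and Ccrl2, a receptor-like protein that binds chemerin without signalling, had 70.0 and 80.8 CPM there. Cxcr2, the receptor of Cxcl1 and Cxcl2, had 9, 33 and 5 UMIs in all, and no neutrophil-like cluster was found. In the 29 monocyte-like nuclei of aneurysm, however, the 8 neutrophil markers summed to 1231 CPM, with 1 at 0. Monocyte-like nuclei of room air and smoke had 118 and 149 CPM of them.

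**Figure D1:**
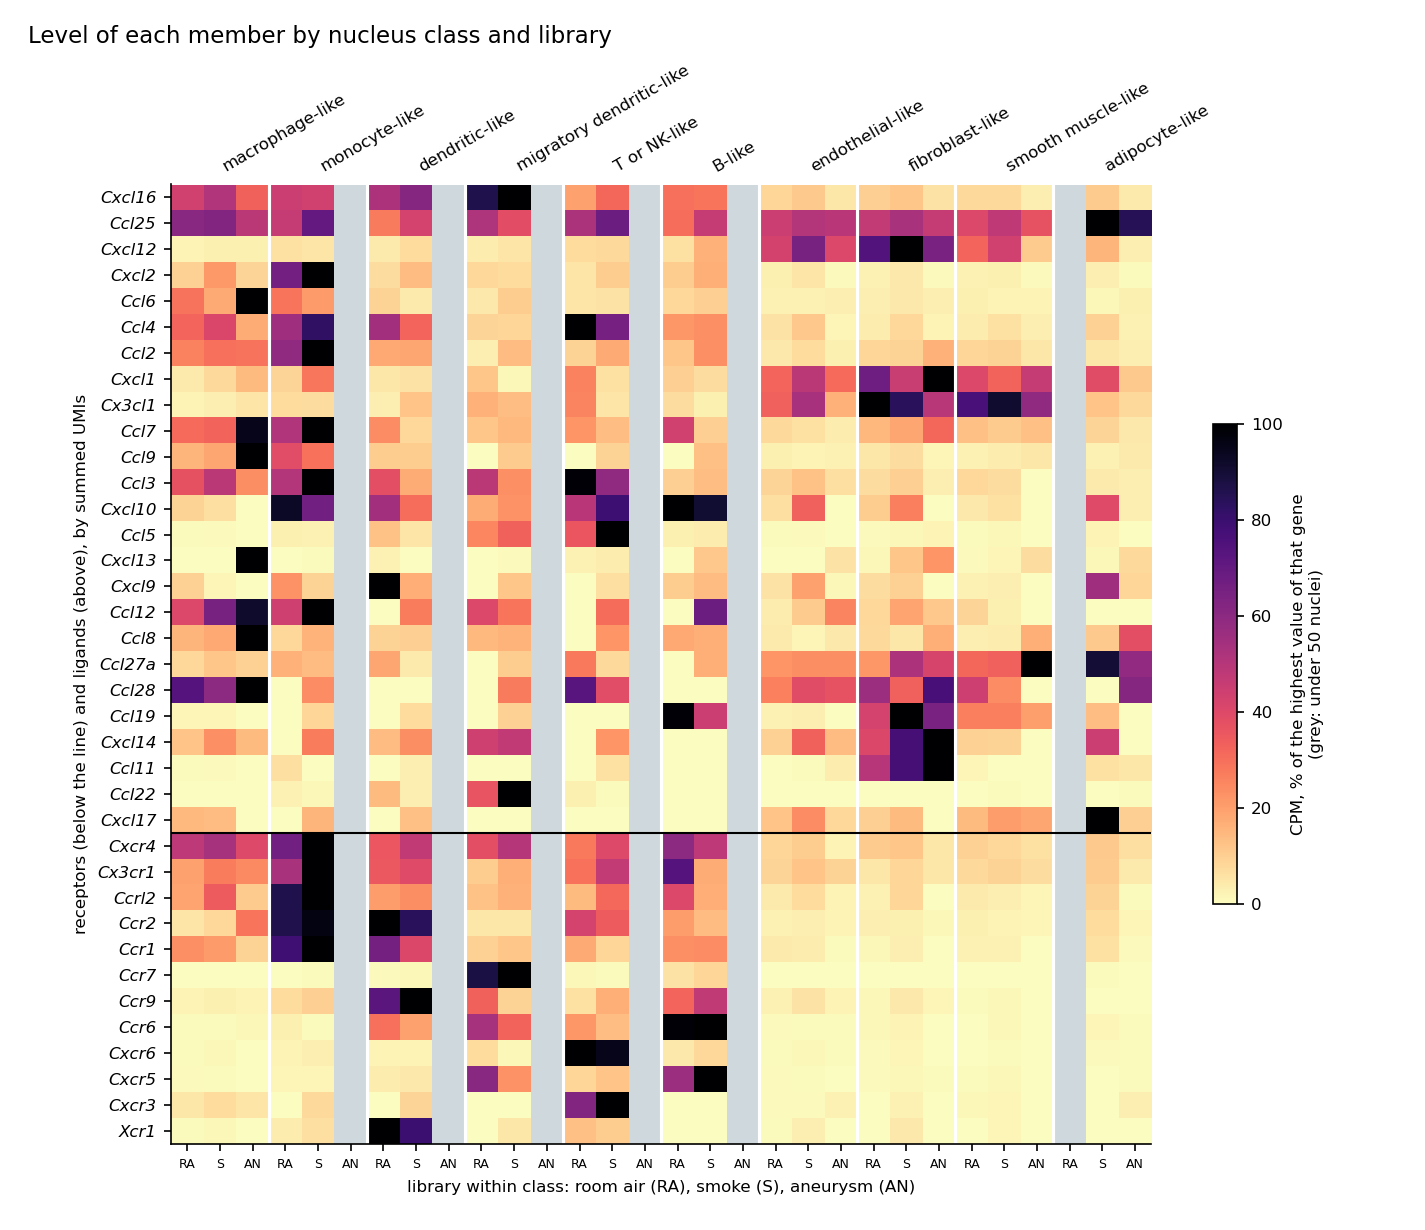
Heat map of 37 named members (rows, ligands above the line and receptors below) over nucleus classes and the 3 libraries within each class (columns). Colour gives the CPM as a percentage of the highest value of that gene, so that rows cannot be compared with each other, and grey marks classes under 50 nuclei. Ccr7 stands in migratory dendritic-like nuclei, Ccl11 in fibroblast-like nuclei and Cxcl13 in macrophage-like nuclei of the aneurysm library.

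Setting each receptor beside its ligands gave the following arrangement of senders and receivers in the room air and smoke libraries. Fibroblast-like, endothelial-like and smooth muscle-like nuclei led for Cxcl12 and Cx3cl1, and monocyte-like nuclei for Cxcr4 (with B-like nuclei within the counting interval in room air) and, in smoke, Cx3cr1. In room air, B-like nuclei had 58.0 CPM of Cx3cr1 (36.7 to 87.0), an interval that overlaps that of monocyte-like nuclei. Among the classes, monocyte-like nuclei led for both Ccl2 and Ccl7 and had high Ccr2. Within the macrophage-like class, however, the cluster led by F13a1 was higher than monocyte-like nuclei for all of these. In room air and smoke it had 54.8 and 86.3 CPM of Ccl2, from 16 and 86 UMIs. Ccl7 was at 92.5 and 147 CPM there, from 27 and 146 UMIs, and Ccr2 at 171 and 135 CPM. Migratory dendritic-like nuclei led for Cxcl16 and T or NK-like nuclei for its receptor Cxcr6. Under all 10 alternatives the leading class was the same in both libraries for Cxcl12, Cxcl16 and Cxcr6. It changed under at least 1 for Cx3cl1, Cxcr4, Cx3cr1, Ccl2, Ccl7 and Ccr2. In smoke the class leading for Ccr2 was dendritic-like under 7 of the 10, and no room air cluster was monocyte-like when the libraries were clustered one by one. In the aneurysm library, 6 receptors that were highest in a lymphoid or dendritic class in smoke were nearly undetected over all kept nuclei. Cxcr3, Cxcr5 and Ccr6 had 3 UMIs each, Cxcr6 and Ccr7 had 4 each, and Xcr1 had 0, which allows up to 3 UMIs. In smoke these 6 receptors had 89, 167, 184, 193, 856 and 86 UMIs. The classes that carry them held 2 to 12 nuclei in the aneurysm library, and fewer cells of a type and less RNA per cell cannot be told apart in these totals.

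In macrophage-like nuclei, Cxcl2 and Ccrl2 were higher in smoke than in room air and Ccl6 was lower. Cxcl2 rested on 1073 UMIs in room air and 4103 in smoke, a ratio of 2.27 (2.12 to 2.43). Ccrl2 was at 15.3 and 27.9 CPM, a ratio of 1.82 (1.64 to 2.02). Ccl6, a macrophage ligand of Ccr1, was at 54.2 and 32.9 CPM, 1.64-fold lower (1.54 to 1.76). A single smoke nucleus held 314 of the Cxcl2 UMIs. In clusters 0 and 1 separately, Cxcl2 was 2.00-fold (1.82 to 2.21) and 2.12-fold (1.82 to 2.48) higher in smoke, and in cluster 3 the ratio was 1.21. In cluster 15, led by F13a1, the direction turned: Cxcl2 was at 336 and 189 CPM, 1.78-fold lower in smoke (1.38 to 2.28), with 41 of the 98 room air UMIs in 1 nucleus.

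Cxcl9, an interferon-gamma target that attracts Cxcr3-bearing T cells, was at 2.33 and 0.436 CPM in macrophage-like nuclei, 5.35-fold lower in smoke (3.31 to 8.96). However, 1 room air nucleus held 36 of 73 UMIs, and without the most loaded nucleus of each library the ratio was 0.353, from 22 and 37 UMIs. Nuclei with a Cxcl9 UMI were 19 of 4205 in room air and 23 of 5194 in smoke. Cxcl10 was at 3.26 and 2.24 CPM, and thinning each nucleus to 1000 UMIs gave 9 and 23 UMIs, in the other direction. Cxcl12 and Cxcl13 had ratios of 1.37 and 2.37, the latter from 4 and 16 UMIs.

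Over the 35 members tested in macrophage-like nuclei (a summed count of 20 UMIs or more in the pair of libraries), 11 were at least 1.5-fold higher in smoke and 2 lower. Of all features tested in the class, 11% were higher and 5.2% lower by this measure. The members' median log2 ratio was 0.25 and that of all features 0.02. Only 3 of the 11 higher members (Cxcl2, Ccrl2 and Ccl12) were at least as high in macrophage-like nuclei as in the other nuclei of the smoke library, and thinning every nucleus to 1000 UMIs left 8 of 13 members past 1.5-fold. Genes known to respond to tissue handling moved in the same comparison: 7 of 13, among them Fos, Jun and Atf3, were at least 1.5-fold higher in smoke and 1 was lower, with a median log2 ratio of 0.69. Their part in the result was not tested.

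Of the members tested in macrophage-like nuclei, Cxcl13 had the largest ratio of aneurysm to smoke. Macrophage-like nuclei held 4 UMIs of this B cell attractant in room air, 16 in smoke and 121 in aneurysm, or 0.128, 0.303 and 80.2 CPM, with at most 7 UMIs in 1 nucleus of the aneurysm library. The aneurysm level was 264-fold above smoke (156 to 477) and 627-fold above room air. Thinned to 1000 UMIs per nucleus, the ratio to smoke was 92.8, from 48 and 5 UMIs. In the aneurysm library 9.34% of macrophage-like nuclei had a Cxcl13 UMI, against 0.889% of endothelial-like and 1.13% of adipocyte-like nuclei, with median depths of 1571, 1835.5 and 1453 UMIs. Over all kept nuclei Cxcl13 was at 0.322, 1.64 and 17.7 CPM.

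The macrophage-like class did not hold the same clusters in each library. Cluster 15, led by F13a1 and Cd163, genes of resident perivascular macrophages, held 339 of the 717 macrophage-like nuclei in aneurysm but 187 of 5194 in smoke and 92 of 4205 in room air. Clusters 0, 1 and 3 held most of the class in the other libraries. With the libraries clustered one by one, the F13a1-led cluster of aneurysm held 382 nuclei, beside macrophage-like clusters of 604 and 397. In cluster 15 itself, Cxcl13 was at 6.85, 9.03 and 208 CPM, from 2, 9 and 120 UMIs, 23.1-fold above smoke (11.8 to 51.7). Of the 121 macrophage-like Cxcl13 UMIs in aneurysm, 120 were thus in this cluster. Under the other clusterings, the ratio in the cluster with the highest F13a1 level ranged from 21.2 to 24.7. The nuclei of this cluster were not alike in every library. One by one, Ttn, Aoah, Ms4a8a and the monocyte marker Adgre4 were among its leading genes in aneurysm but not in room air or smoke. These ranks are against the other clusters of the same library, and their part in the ratio was not tested.

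Ccl6, Ccl9, Ccl7, Ccl8 and Ccr2 were also higher in macrophage-like nuclei of the aneurysm library, but none of the 5 was 1.5-fold above smoke within cluster 15. Ccl6 was at 54.2, 32.9 and 185 CPM in the class, 5.63-fold above smoke (4.94 to 6.39), and at 178, 378 and 457 CPM in cluster 15, a ratio of 1.21 (1.03 to 1.42). Ccl9, another Ccr1 ligand, was at 9.53, 11.3 and 61.6 CPM in the class, 5.44-fold above smoke (4.32 to 6.78), and at 68.5, 144 and 151 CPM in cluster 15. Ccl6 overlaps E230016K23Rik on the opposite strand, which had 3.58, 2.90 and 9.27 CPM in macrophage-like nuclei.

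Ccl7 was at 10.8, 11.3 and 33.1 CPM in the class and at 92.5, 147 and 69.5 CPM in cluster 15. Ccl8, a monocyte attractant of resident macrophages, was at 2.14, 2.54 and 13.9 CPM in the class and at 51.4, 75.3 and 31.3 CPM in cluster 15. Ccr2 was at 6.43, 9.83 and 35.1 CPM in the class, 3.57-fold above smoke (2.64 to 4.75), and at 171, 135 and 79.9 CPM in cluster 15. For these 3 genes the aneurysm library was the highest over the class and the lowest within the cluster, where the Ccl7 and Ccl8 intervals overlapped those of room air. When the libraries were clustered one by one, the Ccr2 ratio in the F13a1-led cluster was 1.01.

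**Figure D2:**
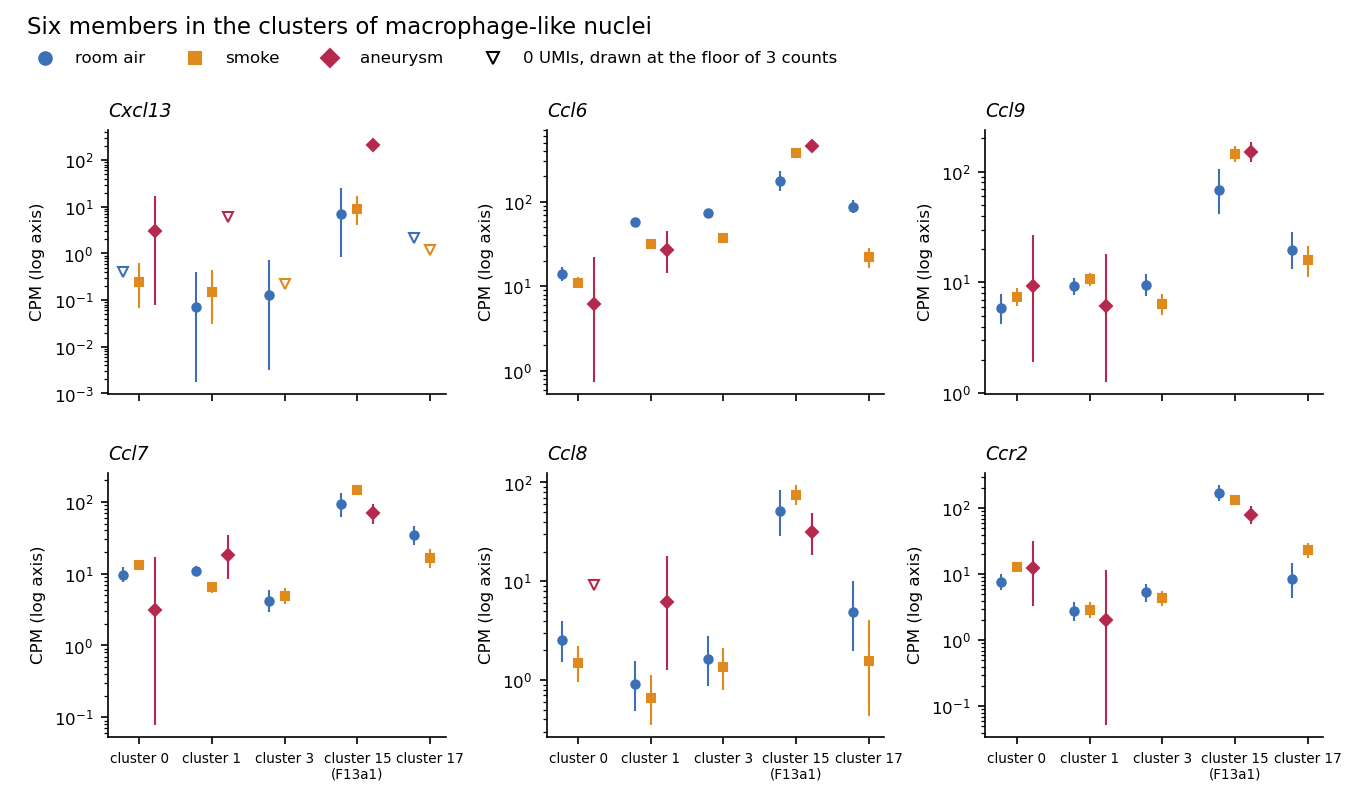
Levels of Cxcl13, Ccl6, Ccl9, Ccl7, Ccl8 and Ccr2 in each cluster of macrophage-like nuclei (CPM, log axis) for the 3 libraries, where points are sums over the nuclei of a cluster, bars are 95% counting intervals and open triangles are 0 UMIs drawn at the floor of 3 counts. Clusters under 50 nuclei in a library are not drawn. Cxcl13 reached 208 CPM in cluster 15 of the aneurysm library against 6.85 and 9.03 CPM, while Ccl6 in the same cluster was at 178, 378 and 457 CPM.

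Cxcl2, Ccrl2 and Ccl4 were lower in macrophage-like nuclei of aneurysm than of smoke. Cxcl2 was at 34.3, 77.8 and 32.5 CPM, 2.40-fold lower (1.81 to 3.25), and was also lower in cluster 15, at 336, 189 and 78.2 CPM. Ccrl2 was 3.24-fold lower (1.89 to 6.10), from 13 UMIs, and Ccl4 2.39-fold lower (1.51 to 4.05), from 18 UMIs. Cxcl9 and Cxcl10 had 0 UMIs in the 717 macrophage-like nuclei of aneurysm, where 3 counts would be 1.99 CPM, and Cxcl12 had 7 UMIs there.

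Of the 35 members tested between aneurysm and smoke in this class, 11 were at least 1.5-fold higher and 7 lower. Among all features tested, 21.7% were higher and 15.7% lower. The median log2 ratio was 0.67 for the members and 0.10 for all features. The summed level of the 9 monocyte markers in this class was 18.5, 20.7 and 147 CPM, with 3 of them at 0 in aneurysm. Of the handling genes, 6 of 13 were at least 1.5-fold higher in aneurysm than in smoke and 3 lower, with a median log2 ratio of 0.46. The part of either list in the result was not tested. In cluster 15 alone, 2 of 17 members were higher (19.3% of all features) and 11 lower (14.8%), with a median log2 ratio of -0.89 for the members and 0.08 for all features.

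Endothelial-like nuclei had more Cxcl10 and Cxcl9 in smoke than in room air or aneurysm. Cxcl10, an interferon-induced Cxcr3 ligand, had 35, 238 and 0 UMIs, or 2.22, 11.8 and 0 CPM. Smoke was 5.31-fold above room air (3.72 to 7.81), and aneurysm was at least 12.1-fold below smoke, with 3 counts taken for the aneurysm library. After thinning to 1000 UMIs the first ratio was 2.14, from 15 and 6 UMIs, and 0 UMIs in aneurysm then allowed a ratio of up to 0.554. Cxcl10 lies opposite Art3, which was at 1.14, 2.24 and 10.1 CPM in these nuclei and thus highest where Cxcl10 was at 0.

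The Cxcl10 UMIs were denser in cluster 14, led by Cyyr1, where 9, 120 and 0 UMIs gave 26.3, 102 and 0 CPM, than in cluster 2, where room air and smoke had 1.25 and 4.90 CPM. Cluster 14 held 72, 177 and 415 nuclei and was therefore the endothelial-like cluster best represented in the aneurysm library. Cxcl9 was at 1.40, 4.82 and 0.326 CPM in endothelial-like nuclei, 3.45-fold above room air in smoke (2.15 to 5.75). In smoke 1 nucleus held 44 of 97 Cxcl9 UMIs, and after thinning the ratio was 1.35, from 11 and 7 UMIs. The single Cxcl9 UMI of the aneurysm library put it 14.8-fold below smoke (2.59 to 590), and without the most loaded nucleus of each library 0 UMIs allowed a ratio of up to 0.371.

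Other members were also lower in endothelial-like nuclei of aneurysm than of smoke. Of Cx3cl1, Cxcl2, Cxcl16, Ccl4 and the receptor Cxcr4, only Cx3cl1 was at least as high there as in the other nuclei of the smoke library. Cx3cl1 was at 12.6, 20.1 and 6.19 CPM, 3.25-fold lower (2.05 to 5.45). Cxcl2 was at 11.3, 18.7 and 2.93 CPM, 6.37-fold lower (3.32 to 14.0), with 106 of 376 smoke UMIs in 1 nucleus. Cxcl16 was 2.38-fold lower (1.68 to 3.47), Ccl4 6.17-fold (2.36 to 22.9) and Cxcr4 4.88-fold (2.05 to 15.2). Cxcl12 differed by cluster: in cluster 2, led by Pgm5 and Bmp6, it was at 82.5, 142 and 45.6 CPM, and in cluster 14 at 79.0, 101 and 139 CPM. Cxcl13 had 1, 6 and 14 UMIs in endothelial-like nuclei, where aneurysm was 15.3-fold above smoke (5.53 to 48.6). Its endothelial-like level in aneurysm was below that of the other nuclei of the aneurysm library.

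Between smoke and room air, 14 of 28 members tested in endothelial-like nuclei were at least 1.5-fold higher and 0 lower, against 14.5% and 3.33% of all features, with medians of 0.58 and 0.10. After thinning, 7 were past 1.5-fold. Between aneurysm and smoke, 1 of 28 was higher and 18 lower, against 11.7% and 20.2% of all features, with medians of -0.84 and -0.02. Macrophage markers moved the same way in these nuclei: the summed level of all 14 was 678, 951 and 367 CPM, with 1 marker at 0 in aneurysm. Of the 14 members higher in smoke, 7 (Cxcl1, Cxcl9, Cxcl10, Cxcl12, Cxcl14, Cxcl17 and Cx3cl1) were at least as high in endothelial-like nuclei as in the other nuclei of that library, and the same 7 were among the 18 lower in aneurysm. Of the handling genes, 10 of 13 were at least 1.5-fold higher in smoke than in room air, and 4 were lower in aneurysm than in smoke. The part of either list in the result was not tested.

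**Figure D3:**
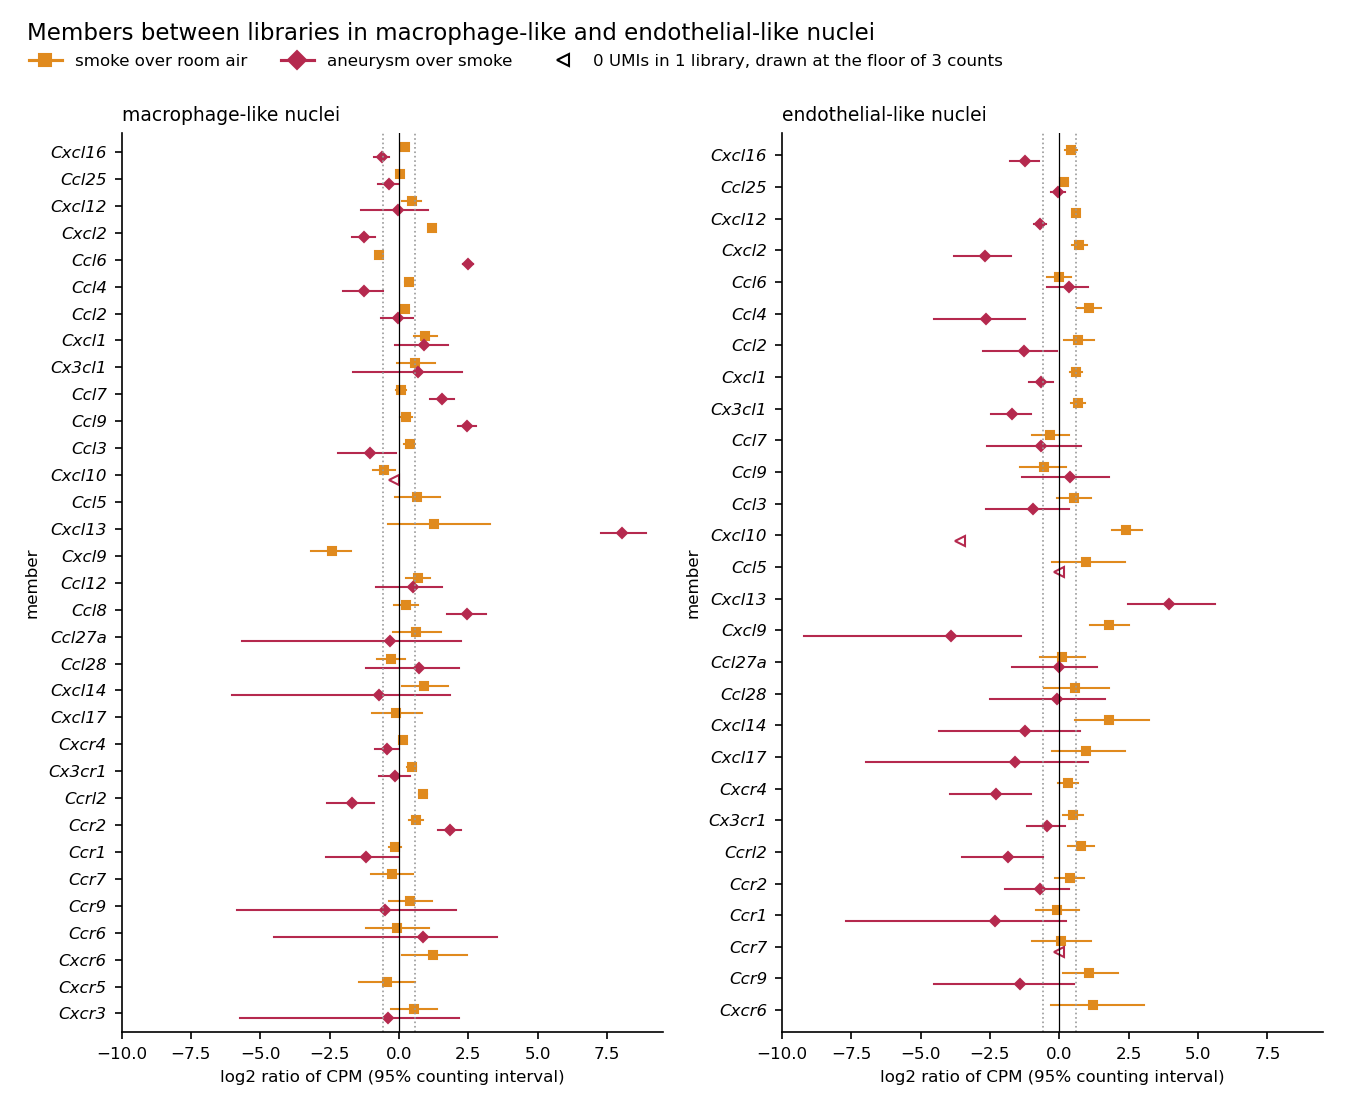
Log2 ratio of CPM for named members tested in macrophage-like nuclei (left) and endothelial-like nuclei (right), smoke over room air (squares) and aneurysm over smoke (diamonds), with 95% counting intervals. Open triangles mark 0 UMIs in 1 library, drawn at the floor of 3 counts. Cxcl13 stands far to the right for aneurysm over smoke in macrophage-like nuclei (264-fold), and Cxcl10 in endothelial-like nuclei lies right for smoke (5.31-fold) and left for aneurysm.

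Fibroblast-like nuclei had more Cxcl13 in both smoke libraries than in room air. It was at 0.948, 9.44 and 17.8 CPM, from 7, 128 and 61 UMIs, and smoke was 9.95-fold above room air (4.69 to 25.3). Cluster 7, led by C7, held 127 of the 128 smoke UMIs, at 3.56, 31.7 and 25 CPM, with 30 of them in 1 nucleus. Cluster 5 had 0, 1 and 25 UMIs, 16 of the 25 in 1 aneurysm nucleus. The aneurysm over smoke ratio for the class was 1.88 and was below 1 with a minimum of 1000 UMIs per nucleus (0.843), at resolution 0.5 (0.781) and with the libraries clustered one by one (0.595), so these data do not order the smoke and aneurysm levels of fibroblast-like Cxcl13. Cluster 5 scored 2.49 for fibroblast and 1.99 for smooth muscle markers. The cluster led by Grin2a was unnamed with a minimum of 1000 UMIs and smooth muscle-like at resolution 0.5. One by one, clusters led by Grin2a were fibroblast-like in aneurysm, smooth muscle-like in smoke, and smooth muscle-like or unnamed in room air. The part of these names in the ratios was not tested.

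Ccl19 and Ccrl2 were also higher in smoke than in room air in fibroblast-like nuclei, 2.36-fold (1.5 to 3.85) and 3.10-fold (1.81 to 5.64). The Ccrl2 ratio was 1.06 after thinning to 1000 UMIs. Ccl19 was densest in cluster 7, at 4.58, 16.2 and 9.02 CPM. Cxcl10 was at 3.66, 9.51 and 0 CPM, but 1 smoke nucleus held 76 of its 129 UMIs, without the most loaded nuclei the ratio was 1.52, and after thinning it was 0.928. Cxcl9 was at 1.63, 2.36 and 0 CPM, and Cxcl12 was 1.35-fold higher in smoke.

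In aneurysm, fibroblast-like Cxcl1 was 2.19-fold above smoke (1.81 to 2.64), which came from cluster 5 at 32.7, 14.6 and 58.8 CPM, and not from cluster 7 at 40.7, 44.9 and 41.6 CPM. With at least 1000 UMIs per nucleus, or at resolution 0.5, the class ratio was 0.960 and 0.923. Cxcl2 was 5.11-fold lower than in smoke (2.80 to 10.4) and Ccl4 3.90-fold lower (1.60 to 12.3). Cxcl10 was at least 10.9-fold lower and Cxcl9 at least 2.70-fold lower, both at 0 UMIs in aneurysm. Ccrl2 was lower by a ratio of 23 (4.03 to 919), from 1 UMI.

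Of the members tested in fibroblast-like nuclei, 12 of 30 were at least 1.5-fold higher in smoke than in room air and 1 lower (all features 15.2% and 3.46%). Of these 12, 6 (Ccl11, Ccl19, Ccl27a, Cxcl10, Cxcl13 and Cxcl14) were at least as high there as in the other nuclei of the smoke library. Ccrl2, Cxcl2, Cx3cr1, Ccr1, Ccr9 and Ccl4 were not. Between aneurysm and smoke, 5 of 26 were higher and 15 lower (all features 11.4% and 21.5%), with medians of -0.70 and -0.07. The 14 macrophage markers summed to 744, 1192 and 339 CPM in this class, with none at 0, and their part in these counts was not tested. Of the 15 lower members, 5 (Ccl19, Cxcl9, Cxcl10, Cxcl12 and Cx3cl1) were at least as high in fibroblast-like nuclei as in the other nuclei of the smoke library, and this held for all 5 of the higher ones (Cxcl1, Cxcl13, Ccl2, Ccl5 and Ccl7). The Ccl5 level rested on 7 UMIs, 6 of them in 1 nucleus.

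In smooth muscle-like nuclei Cxcl12 was 4.00-fold lower in aneurysm than in smoke (2.65 to 6.34). After thinning, the ratio was 0.449, from 13 and 90 UMIs. The difference appeared in cluster 8, at 61.0, 85 and 22 CPM, and in cluster 13, at 34.1, 33.4 and 5.79 CPM, the last from 2 UMIs. Cxcl2 was at 8.63, 10.5 and 3.08 CPM in this class and Cxcl13, from 5, 18 and 7 UMIs, at 0.732, 1.27 and 5.39 CPM, 4.25-fold above smoke in aneurysm with an interval that begins below 1.5-fold. Cxcl9 had 4, 11 and 0 UMIs and Cxcl10 had 11, 30 and 0 UMIs. In smoke against room air, 3 of 23 members were at least 1.5-fold higher and 0 lower (all features 12.6% and 4.48%), and in aneurysm against smoke 3 of 21 were higher and 7 lower (12.8% and 19.4%). Of those 7, Cxcl12 and Cx3cl1 were at least as high in smooth muscle-like nuclei as in the other nuclei of the smoke library. Of the 3 higher in aneurysm, Ccl27a was at least as high there as in the other nuclei of the aneurysm library, and Cxcl13 was not. The 14 macrophage markers summed to 574, 758 and 456 CPM in this class, with none at 0, and their part was not tested.

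Adipocyte-like nuclei could be compared between smoke and aneurysm. None of 12 members tested was at least 1.5-fold higher in aneurysm and 10 were lower, against 14.8% and 25% of all features. Cxcl9 was at 13.5 and 2.04 CPM, 6.62-fold lower (2.50 to 22.1), and Cxcl10 at 14.0 and 1.22 CPM, a ratio of 11.5 (3.53 to 59.0) from 3 UMIs. Cxcl2 was 5.60-fold lower (2.07 to 18.9) and Cxcl1 3.55-fold lower (1.88 to 7.07). Ccr2 and Cxcl16 were 4.33-fold (1.53 to 15.0) and 2.55-fold (1.53 to 4.35) lower. Cxcl12 was 4.80-fold lower, but 1 smoke nucleus held 38 of its 49 UMIs, and without the most loaded nuclei the ratio was 0.856. Cxcl13 was higher, at 1.04 and 6.12 CPM, from 2 and 15 UMIs, both below its level over all kept nuclei of the same library. The 14 macrophage markers summed to 1235 and 347 CPM in these nuclei, and their part was not tested.

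**Figure D4:**
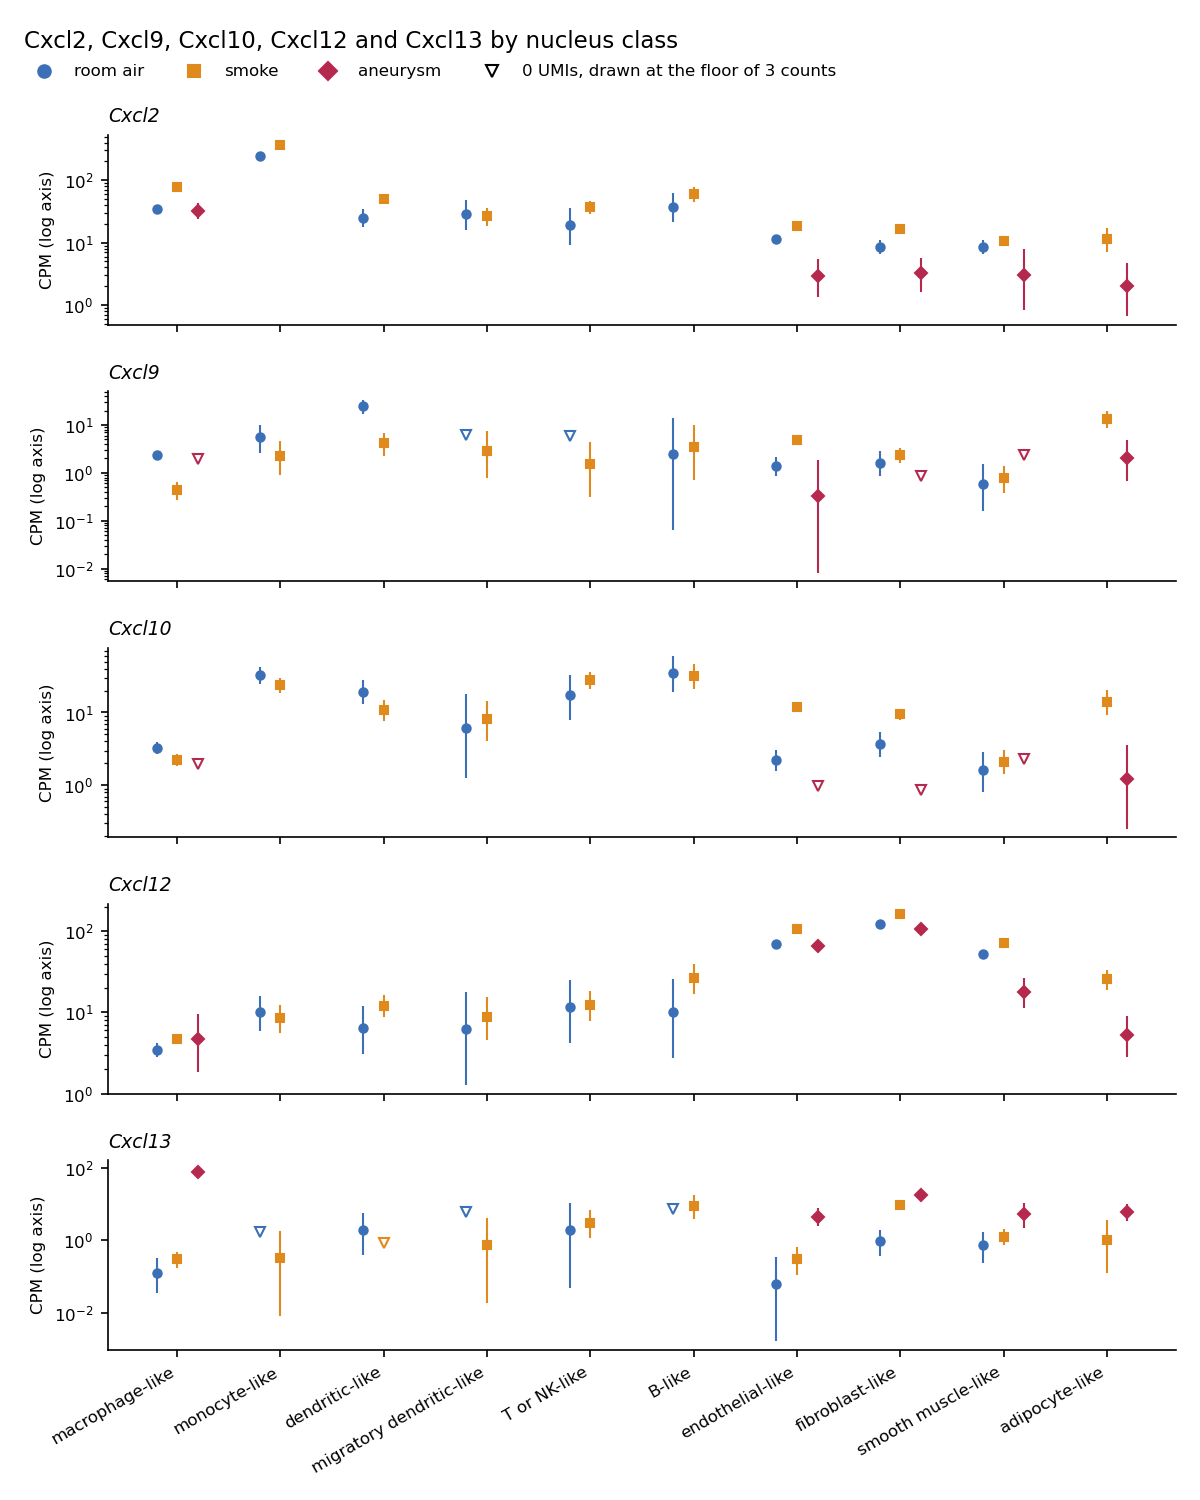
Levels (CPM, log axis) of Cxcl2, Cxcl9, Cxcl10, Cxcl12 and Cxcl13 in each nucleus class for the 3 libraries, with 95% counting intervals; open triangles are 0 UMIs drawn at the floor of 3 counts, and classes under 50 nuclei are not drawn. Cxcl12 is highest in fibroblast-like nuclei (121, 163 and 106 CPM), Cxcl2 in monocyte-like nuclei (242 and 364 CPM) and Cxcl13 in macrophage-like nuclei of aneurysm (80.2 CPM).

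The aneurysm library was also set against room air, a comparison that holds both the smoke and the aneurysm and shares its libraries with the comparisons above. In macrophage-like nuclei 10 of 27 members tested were at least 1.5-fold higher and 5 lower (all features 20.9% and 14.5%). Intervals lay wholly above 1.5-fold for, among others, Cxcl13 (627-fold), Ccl6 (3.42-fold), Ccl7 (3.06-fold), Ccl8 (6.49-fold), Ccl9 (6.47-fold), Ccr2 (5.46-fold) and Cxcl1 (3.56-fold, 1.69 to 6.81, from 64 room air and 11 aneurysm UMIs). The Ccr2 ratio was 3.17 after thinning to 1000 UMIs and 2.76 with at least 1000 UMIs per nucleus. The class held different clusters in these libraries, which neither setting accounts for. In cluster 15, room air and aneurysm had 92.5 and 69.5 CPM of Ccl7 and 51.4 and 31.3 of Ccl8, with overlapping intervals. Ccr2 was at 171 and 79.9 CPM there, Ccl6 at 178 and 457, Ccl9 at 68.5 and 151, and Cxcl13 at 6.85 and 208. Over the whole class, Cxcl2 differed by less than the counting error, at 34.3 and 32.5 CPM.

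In endothelial-like nuclei 0 of 21 members were higher in aneurysm than in room air and 10 lower (all features 15.3% and 13.9%). Those with an interval wholly past 1.5-fold were Cxcl2 (3.86-fold lower, 1.99 to 8.57), Cxcr4 (3.94-fold lower, 1.63 to 12.4) and Cxcl10 (at least 2.28-fold lower). In fibroblast-like nuclei 7 of 21 were higher and 8 lower (13.5% and 12.4%): Cxcl13 was 18.7-fold higher (8.57 to 48.6), Cx3cl1 2.03-fold lower (1.54 to 2.70) and Cxcl10 at least 4.18-fold lower. Clustering the libraries one by one gave a fibroblast-like Cx3cl1 ratio of 2.53, in the other direction, with 14 room air UMIs in the class in place of 279. The Cxcl13 ratio was 4.98 under that clustering, 7.02 at resolution 0.5 and 7.25 with at least 1000 UMIs per nucleus. In smooth muscle-like nuclei 2 of 16 were higher and 7 lower (13.4% and 14.4%), with Cxcl12 2.98-fold lower (1.96 to 4.76). The Cxcl12 ratio was 0.887 at resolution 0.5, 0.627 at resolution 2 and 0.656 after thinning. Lymphatic endothelial-like nuclei could be compared with smoke only, where Cxcl2 had 20 UMIs in smoke, 15 of them in 1 nucleus, and 0 in aneurysm.

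The other leukocyte classes were compared between room air and smoke. In T or NK-like nuclei Ccl5 rested on 17 and 175 UMIs, 2.76-fold higher in smoke (1.67 to 4.84), with at most 5 UMIs in 1 smoke nucleus. Of the 19 members tested there, 8 were at least 1.5-fold higher and 4 lower (all features 16.4% and 10.4%). Of the 8, 5 (Ccl5, Ccrl2, Cx3cr1, Cxcl10 and Cxcr3) were at least as high there as in the other nuclei of the smoke library, and Cxcl2, Cxcl16 and Ccl2 were not. The 14 macrophage markers summed to 1763 CPM in room air, with 1 at 0, and 2669 CPM in smoke, and their part was not tested. Cxcl10 was at 17.3 and 27.9 CPM in this class.

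In monocyte-like nuclei 8 of 19 members were higher in smoke and 0 lower (all features 11% and 7.08%), with a median log2 ratio of 0.58 against 0.03. All 8 (Ccl2, Ccl3, Ccl7, Ccl12, Ccl25, Cxcl1, Cxcl2 and Cx3cr1) were at least as high there as in the other nuclei of the smoke library. Cxcl1, at 4.45 and 14.6 CPM, was 3.28-fold higher (1.53 to 8.04), but 1 nucleus held 14 of its 46 smoke UMIs, and with at least 1000 UMIs per nucleus the ratio was 0.381. Cxcl10 was at 32.8 and 23.5 CPM and Cxcl9 had 10 room air UMIs, 6 of them in 1 nucleus.

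Dendritic-like nuclei went the other way, with 3 of 24 members higher in smoke and 10 lower (all features 12.8% and 5.44%). Cxcl9 was at 24.4 and 4.12 CPM, 5.94-fold lower (3.19 to 11.6), but 6 room air nuclei held its 38 UMIs and 1 of them held 19. Ccl22 was at 9.65 and 2.19 CPM, 4.40-fold lower (1.75 to 12), from 15 and 8 UMIs. Cxcl10 was at 19.3 and 10.7 CPM, with 19 of its 30 room air UMIs in 1 nucleus, and its ratio was 1.08 after thinning and 1.42 with at least 1000 UMIs per nucleus. Cxcl2 was at 25.1 and 49.9 CPM, and Cxcl12 at 6.43 and 12.1 CPM.

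In B-like nuclei Cx3cr1 was at 58.0 and 13.7 CPM, 4.23-fold lower in smoke (2.02 to 9.32), from 23 and 12 UMIs. Of 15 members tested 4 were higher and 2 lower (all features 21.2% and 12.5%). Cx3cr1 overlaps 9 other features, 3 on its own strand. In migratory dendritic-like nuclei 4 of 13 members were higher and 2 lower (all features 18% and 9.65%), and none had a bound past 1.5-fold. Cxcl2, Cxcl9, Cxcl10, Cxcl12 and Cxcl13 were not among them.

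Genes that act with chemokines were read from lists of related function. The shares of all features that passed 1.5-fold, to read these counts against, are for smoke over room air 11% higher and 5.2% lower in macrophage-like and 14.5% and 3.33% in endothelial-like nuclei, and for aneurysm over smoke 21.7% and 15.7%, and 11.7% and 20.2%. Of 8 atypical receptors and chemokines outside the naming rule, 4 were tested in endothelial-like nuclei, and Ackr1, Ackr3 and Cmklr1 were at least 1.5-fold higher in smoke than in room air. Ackr3, the scavenger receptor that takes up Cxcl12, was at 32.2, 56.9 and 68.4 CPM there. In macrophage-like nuclei 3 of 5 (Ackr3, Pf4 and Rarres2) were higher in smoke and 3 (Ackr3, Pf4 and Cmklr1) were higher in aneurysm than in smoke.

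Of 16 genes of receptor signalling and motility, macrophage-like nuclei had 1 higher in smoke, Rgs1, a brake on Gi signalling, at 437 and 790 CPM. In endothelial-like nuclei 8 of 16 were lower in aneurysm than in smoke, among them the leukocyte genes Dock2, Rac2 and Vav1, and 1 (Grk2) was higher. Of 13 genes that present or cleave chemokines, 3 were higher and 3 lower in macrophage-like nuclei of aneurysm against smoke, near those shares. One of these, Mmp9, which trims several CXC ligands, had 12 UMIs in smoke and 19 in aneurysm, a ratio of 55.3 (25.5 to 125).

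Of the inducers of chemokine transcription, 10 were tested in endothelial-like nuclei. Irf7, an interferon-induced factor, was 3.07-fold and Il6 2.08-fold higher in smoke than in room air, while in aneurysm against smoke 5 (among them Irf7, Tnf, Ifngr1 and Il1b) were lower and 2 (Nfkbia and Il6) higher. In macrophage-like nuclei Irf1, which activates interferon targets such as Cxcl9, was the 1 gene of 10 past 1.5-fold in smoke, with a ratio of 0.547, and in aneurysm 4 (among them Irf7, Tnf and Il1b) were lower than in smoke and 3 (Nfkbia, Irf1 and Il6) higher.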

How the data were processed

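The deposited files are raw UMI counts per gene and nucleus, 1 filtered matrix per library; they were written by cellranger 8.0.1, per the file headers, whereas Cell Ranger 2.2.0, STAR and mm10 stand in the submitters' processing notes. The use of introns and strand in counting was not stated there. Nuclei were kept from 500 UMIs and 300 genes upward where mitochondrial UMIs stayed under 5%, and were clustered jointly with scanpy 1.11.5 (2000 variable genes without the members, 30 principal components, 20 neighbours, Leiden resolution 1). Clusters were named from marker lists. Scrublet marked 367, 404 and 1 nuclei and so did not work in the aneurysm library; no doublets were removed.

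Counts were summed per class and library and divided by the class total (CPM). With 1 library per group, 1.5-fold differences were counted for features with a sum of 20 UMIs or more over the pair of libraries, beside the same share of all features. Class totals ranged from 129138 (lymphatic endothelial-like, aneurysm) to 52721286 UMIs (macrophage-like, smoke) in the classes compared, which sets the counting error. Members with at least 100 UMIs are named, except 1 that, like 1 gene of the related lists, is not reported here and enters only the counts; in a comparison, those whose interval bound is past 1.5-fold and the 5 chemokines Cxcl2, Cxcl9, Cxcl10, Cxcl12 and Cxcl13. A nucleus holding at least 25% of a gene's UMIs is stated where it bears on a comparison. The members, lists and markers were chosen with earlier results of these data known. The ratio and its interval, but not the count of calls, were checked on simulated Poisson counts. These were drawn per gene, so a nucleus holding a large share of a gene's UMIs was not covered. Alternatives covered nucleus filters, clustering, doublet scores, scaling, count filters, thinning and the most loaded nucleus.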

Additional observations from a re-analysis of the deposited data

Results flagged for a closer look

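Some members moved in opposite directions in different classes under the same comparison, with both counting intervals past 1.5-fold. None of these differences was tested, since each group is 1 library. Between smoke and room air, Cxcl9 had a ratio of 3.45 in endothelial-like nuclei, against 0.187 in macrophage-like nuclei and 0.168 in dendritic-like nuclei, and in each class 1 nucleus of the higher library held a large share of its UMIs. Between aneurysm and smoke, Ccr2 had a ratio of 3.57 in macrophage-like nuclei and 0.231 in adipocyte-like nuclei, the latter from 5 and 17 UMIs. Within the macrophage-like cluster led by F13a1, however, the Ccr2 ratio was 0.590 (0.413 to 0.830), and 1.01 with the libraries clustered separately. That cluster held 339 of the 717 macrophage-like nuclei in aneurysm and 187 of 5194 in smoke. The part of this makeup in the class ratio was not tested. Cxcl1, also between aneurysm and smoke, had a ratio of 2.19 in fibroblast-like nuclei and 0.282 in adipocyte-like nuclei, the latter from 14 and 39 UMIs.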

How the results depend on the processing

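The counts of members past 1.5-fold moved by over 1.5 times as follows. For smoke over room air in macrophage-like nuclei the count was 13, and it was 24 with no filter beyond 1 UMI and 8 with nuclei thinned to 1000 UMIs. In endothelial-like nuclei it was 14 for smoke over room air, 28 with no filter, 9 with at least 50 UMIs and 7 thinned, and 19 for aneurysm over smoke, 10 thinned. An alternative chosen after seeing the data kept only members at least as high in the class as in the other nuclei of the library, and gave 4, 7 and 7 for these 3 comparisons. The count of 18 for aneurysm over smoke in macrophage-like nuclei stayed between 12 and 20. Of 156 ratios, 149 did not turn from past 1.5-fold in one direction to the other side of 1 under any alternative. A ratio within 1.5-fold at the main settings cannot turn by this rule, so 149 is not a count of stable ratios. Macrophage-like Cxcl10, within 1.5-fold for smoke over room air, changed direction when thinned to 1000 UMIs and is not listed here. The filters of 1 UMI and 50 UMIs leave a ratio unchanged and could not turn one. The ratios that did turn, and 1 ratio within a cluster, were these. Thinned to 1000 UMIs, for smoke over room air, Cxcl10 was 0.928 in fibroblast-like and 1.08 in dendritic-like nuclei and Cxcl2 was 0.450 in B-like nuclei. With a minimum of 1000 UMIs, Cxcl1 was 0.960 and Cxcl13 0.843 in fibroblast-like nuclei (aneurysm over smoke), Cxcl1 was 0.381 in monocyte-like nuclei and Cxcl10 was 1.42 in dendritic-like nuclei. At resolution 0.5, Cxcl1 was 0.923 and Cxcl13 0.781 in fibroblast-like nuclei. With libraries clustered one by one, fibroblast-like Cxcl13 was 0.595, fibroblast-like Cx3cl1 was 2.53 for aneurysm over room air, and Ccr2 in the F13a1-led cluster, added after seeing the data, was 1.01. With a minimum of 1000 UMIs, at resolution 0.5 and one by one, the cluster led by Grin2a was not fibroblast-like in every library. The cause of these changes was not tested. The class with the highest level was the same under all 10 alternatives for 14 of 38 members in room air, 16 of 38 in smoke and 22 of 37 in aneurysm. No paired analysis was possible because each group is 1 library. The aneurysm library was the shallowest: 0 UMIs in its endothelial-like nuclei allow up to 0.978 CPM.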

Other observations

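Chemokine pairs that lie near each other in the genome were seen together in few nuclei. Of nuclei with a Cxcl9 UMI, 13 of 53 in room air, 19 of 107 in smoke and 0 of 6 in aneurysm also had a Cxcl10 UMI, while 1.29%, 1.87% and 0.0526% of all kept nuclei had one. For Ccl6, 99 of 1000, 177 of 1121 and 38 of 203 nuclei also had Ccl9, which 3.00%, 4.03% and 1.56% of all nuclei had. For Ccl3, 81 of 319, 212 of 611 and 4 of 27 nuclei also had Ccl4. Nuclei with both were deeper: those with Ccl6 and Ccl9 had medians of 10643, 11643 and 2362 UMIs, against 4058.5, 6225 and 1443 over all kept nuclei, so these shares are not free of depth.

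Of the 58 members, 16 overlap another annotated feature, all but Ccr9 and Cx3cr1 on the opposite strand only. Besides those named with their partners above, Cxcr6 overlaps Fyco1, which was at 125 and 144 CPM in T or NK-like nuclei of room air and smoke.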
